A study of Mus musculus with 2 samples.

Results

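The hypoxia-inducible factors and a set of their targets were followed in Tie2Cre lineage cells of the embryonic mouse heart. The 10 genes, of 18193 genes on the array, were chosen by symbol. They are the factor subunits Hif1a and Epas1, the oxygen sensors Egln1 and Egln3, and the targets Adm, Ankrd37, Ndrg1, Bnip3, Slc2a1 and Pdk1. These genes and the related lists below were chosen with earlier results of these data known. Their shares beside all measured genes are therefore descriptive and not a blind comparison. The 10 genes were read by 26 probe sets that each name only 1 of these genes, and all 26 were used. The control cells were Tie2Cre;Tbx20 +/loxP and the mutant cells Tie2Cre;Tbx20 loxP/-, both at embryonic day 12.5, with 1 array per genotype. Both genotypes carry Tie2Cre and a floxed Tbx20 allele. The mutant carries a null allele in all cells, and the control a working allele in its place. Tie2Cre recombines in endothelium, endocardium and their descendants and also in blood cells, and cells with the blood markers CD41, CD45 or Ter119 were removed in the sort. Whether embryos were pooled is not given in the sources used here. No value below has a replicate, so there is no test between genotypes, and the number of arrays limits the precision.

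In cells with enough oxygen, prolyl hydroxylases of the Egln family mark the HIF alpha subunits, the VHL ubiquitin ligase binds the marked protein, and it is degraded. When oxygen is short the alpha subunit persists, pairs with Arnt and binds a short core in DNA beside genes for glucose uptake, blood vessel growth and mitochondrial turnover. Control therefore acts mainly on protein, which an expression array does not read. Epas1, also named HIF2-alpha, is best known from endothelium, and Egln3 is both a sensor and a target that feeds back on the factors.

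Measured genes are those above the floor on both arrays, where the floor is each array's median signal, 91.3 in the control and 82.4 in the mutant. All 10 genes were measured in their brightest probe set. Ratios are log2 of mutant over control signal. Of the 10, 7 were lower and 3 higher in the mutant array, with a median log2 ratio of -0.69, against a median of -0.01 and 51.0% lower over the 10665 measured genes. The 7 lower genes were Ankrd37, Egln3, Ndrg1, Adm, Bnip3, Pdk1 and Epas1, and these were also the genes whose measured probe sets were all lower. Hif1a, Egln1 and Slc2a1 had probe sets in both directions. Ankrd37 was the 1 gene at least 2-fold lower, where 1.46% of all measured genes were, and 0 were 2-fold higher, against 0.647%. The log2 ratios of 4 genes lay within 0.1 of the 2-fold line at -1. The count was 3 after quantile normalization or loess and 0 with a pseudocount. It was also 0 with a higher floor, under which Ankrd37 was no longer measured. At 1.5-fold, 5 of the 10 genes were lower, against 6.61% of all measured genes, and 0 higher, against 4.37%. Over the 23 measured probe sets, 19 were lower and 4 higher, with a median of -0.46, where 50.1% of all 19273 such single-gene probe sets were lower. The other 3 probe sets, of Hif1a, Ndrg1 and Pdk1, lay under the floor on both arrays.

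**Figure D1:**
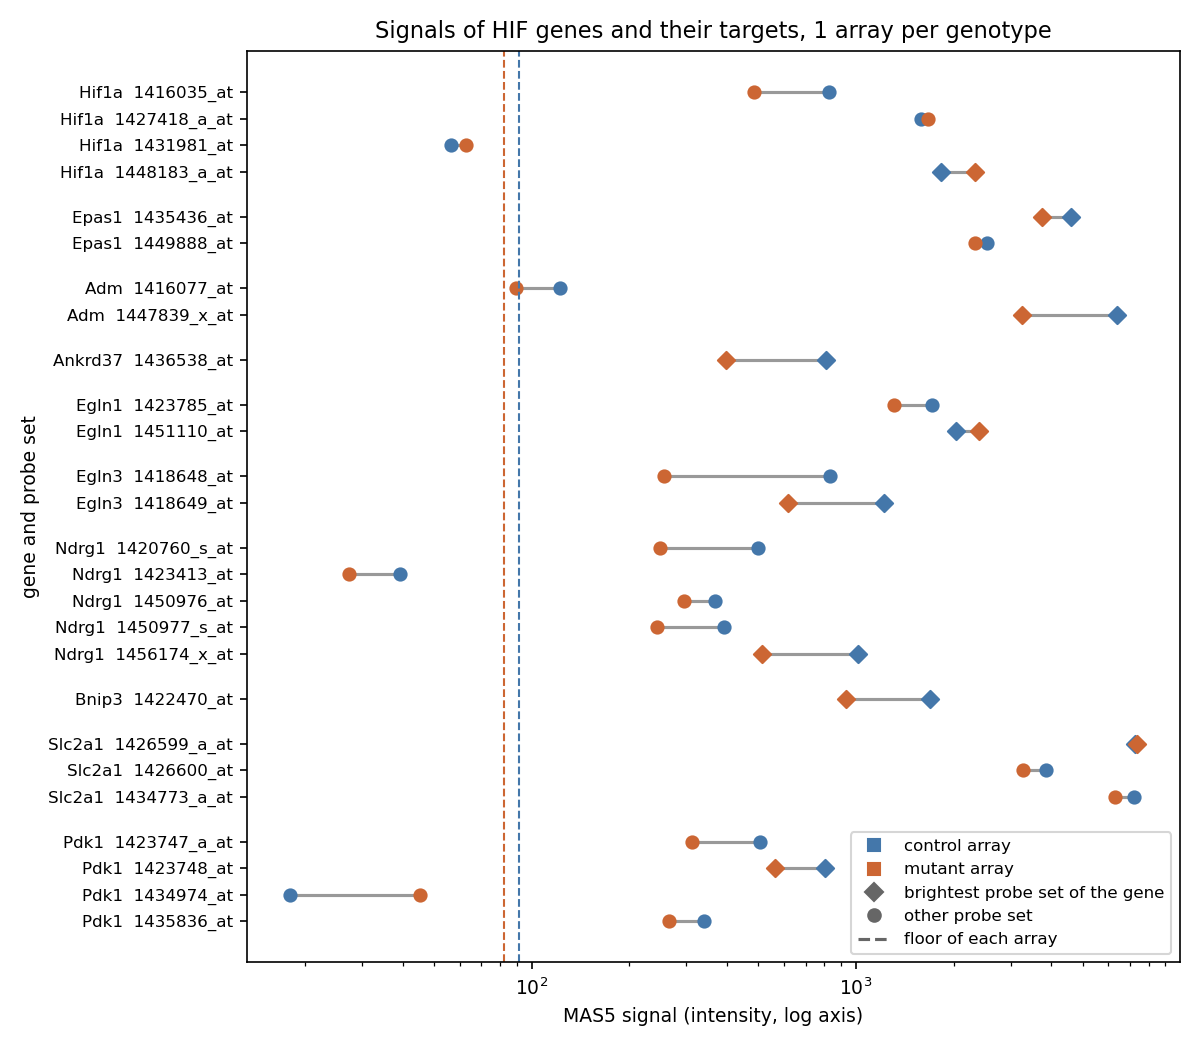
MAS5 signal (log axis) of each of the 26 probe sets in the control array (blue) and the mutant array (orange), with diamonds for the brightest probe set of a gene and dashed lines for each array's floor. Both Egln3 probe sets and all 4 Ndrg1 probe sets above the floor lie further left in the mutant, while the Hif1a and Egln1 probe sets go both ways.

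The DNA core that HIF binds was looked for in the promoters of these genes, to show which of them carry it near the start site. The search used the letters ACGTG and GCGTG on both strands, in windows from 250 bases before to 50 bases after each annotated start, from RefSeq on GRCm38.p6. The palindrome CACGTG matches on both strands and was counted as 1 site. Windows were found for 8 of the 10 genes, all except Epas1 and Ndrg1, and Pdk1 had 2. The first 250 bases are printed for 4 genes that were lower in the mutant array (Ankrd37, Egln3, Bnip3 and Adm) and for 2 genes with probe sets in both directions (Egln1 and Slc2a1). They lie at chr8:45999851-46000100 on the minus strand for Ankrd37, chr12:54203875-54204124 on the minus strand for Egln3 and chr7:138909507-138909756 on the minus strand for Bnip3. The others lie at chr7:110627407-110627656 on the plus strand for Adm, chr8:124949255-124949504 on the minus strand for Egln1 and chr4:119108495-119108744 on the plus strand for Slc2a1. Each is written 5′ to 3′ on the gene's strand, ending at the base before the start, with matches to the core in capitals.
Ankrd37: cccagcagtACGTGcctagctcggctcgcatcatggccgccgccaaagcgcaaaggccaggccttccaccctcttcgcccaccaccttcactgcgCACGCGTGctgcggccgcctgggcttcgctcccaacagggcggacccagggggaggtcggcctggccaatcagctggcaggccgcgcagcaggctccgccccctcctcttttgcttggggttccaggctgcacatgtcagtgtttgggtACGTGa
Egln3: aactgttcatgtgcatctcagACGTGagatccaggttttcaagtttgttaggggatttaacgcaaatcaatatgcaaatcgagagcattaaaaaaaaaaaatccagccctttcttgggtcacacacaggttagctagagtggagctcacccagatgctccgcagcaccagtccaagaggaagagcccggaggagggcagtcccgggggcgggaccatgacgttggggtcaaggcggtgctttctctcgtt
Bnip3: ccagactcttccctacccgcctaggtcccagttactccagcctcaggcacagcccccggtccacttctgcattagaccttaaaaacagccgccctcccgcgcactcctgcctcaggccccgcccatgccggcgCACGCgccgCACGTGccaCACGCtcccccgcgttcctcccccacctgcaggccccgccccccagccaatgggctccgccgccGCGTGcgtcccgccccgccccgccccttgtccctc
Adm: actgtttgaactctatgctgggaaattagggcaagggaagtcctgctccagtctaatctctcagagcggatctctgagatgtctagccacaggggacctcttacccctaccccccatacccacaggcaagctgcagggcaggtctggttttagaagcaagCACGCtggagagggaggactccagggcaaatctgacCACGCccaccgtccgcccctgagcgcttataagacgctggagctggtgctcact
Egln1: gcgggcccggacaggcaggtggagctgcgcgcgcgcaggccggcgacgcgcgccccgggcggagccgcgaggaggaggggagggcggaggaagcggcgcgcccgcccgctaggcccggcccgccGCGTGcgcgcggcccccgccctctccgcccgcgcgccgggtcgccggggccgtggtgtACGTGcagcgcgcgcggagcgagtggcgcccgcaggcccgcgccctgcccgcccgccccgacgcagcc
Slc2a1: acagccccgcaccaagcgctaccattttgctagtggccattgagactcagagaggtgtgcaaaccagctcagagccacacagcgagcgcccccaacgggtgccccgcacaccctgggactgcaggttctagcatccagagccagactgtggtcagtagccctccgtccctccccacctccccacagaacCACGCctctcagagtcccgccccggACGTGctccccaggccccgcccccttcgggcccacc

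A core stood in the window of all 8 genes with an entry, and in 8 of 9 windows, since the second Pdk1 window held none. Of all 32817 promoter windows 43.8% held a core, and of the 11133 windows of measured genes 62.9% did. Counted by gene, the shares were 46.7% of all genes with a window and 69.3% of measured genes. Of the 26 other HIF targets with a window it was 84.6%. Windows with 2 or more sites were 7 of the 9, against 30.7% of the windows of measured genes and 50% of those of other HIF targets. Ankrd37 and Bnip3 held 4 sites each, Egln3 held 1, and Hif1a, Adm, Egln1 and Slc2a1 held 2, as did the first Pdk1 window. The Ankrd37 sites that began 155 and 152 bases before the start overlap in the palindrome CACGCGTG and were counted apart. The Egln3 site began 229 bases before the start, and the sites nearest to a start were those of Pdk1 and Ankrd37, which began 2 and 6 bases before it. The ACGTG form was present in 19.6% of all windows, 25.7% of windows of measured genes and 66.7% of the 9 windows. For the GCGTG form these shares were 32.4%, 51.3% and 66.7%. Genes that were lower on the mutant array and genes with probe sets in both directions thus both carried matches. A match is a stretch of letters and not a measured binding site.

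**Figure D2:**
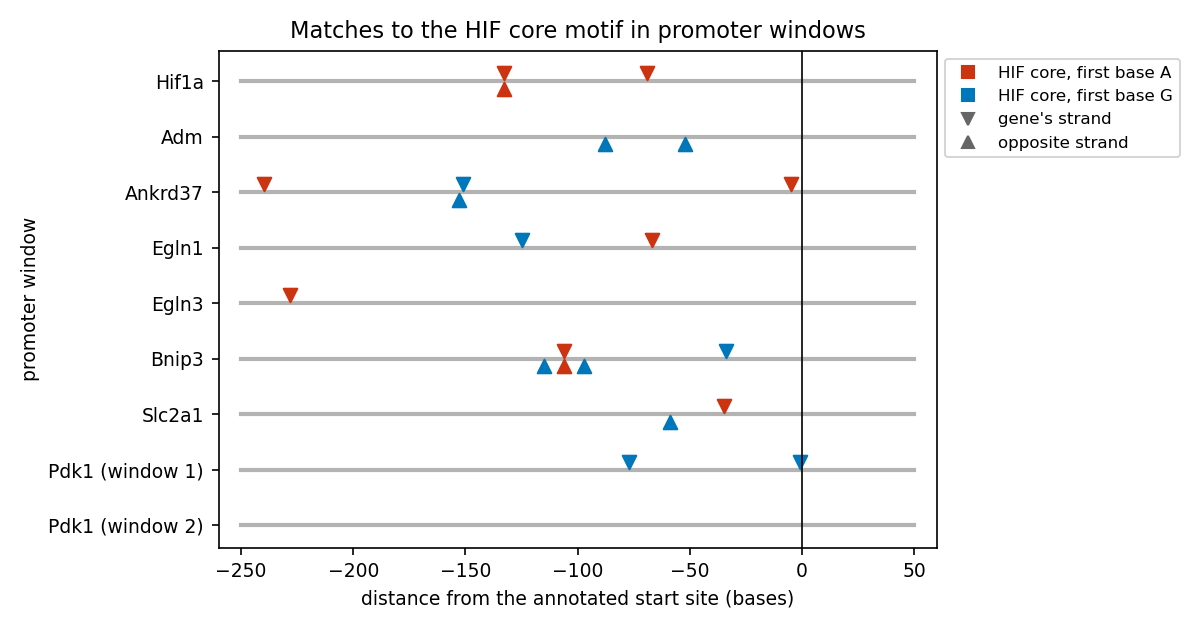
Position of each core match relative to the annotated start site (x axis, bases) in the 9 windows of 8 genes; red marks the form that begins with A, blue the form that begins with G, and the triangle's direction the strand. Every gene shown has at least 1 match, and the second Pdk1 window has 0.

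The factor subunits came first. Hif1a encodes the oxygen-regulated subunit found in most cells, and its probe sets disagreed. The brightest gave 1830 in control cells and 2328 in mutant cells, a log2 ratio of 0.35, and the next gave 1589 and 1666, a ratio of 0.07. The dimmest measured probe set, the only unsuffixed one of them, gave 825 and 485, a ratio of -0.76. The spread over the 3 was an SD of 0.58, larger than their mean of -0.12 in size, so no direction can be given for Hif1a. Epas1 read 4621 and 3739 in its brightest probe set and 2543 and 2332 in the other, ratios of -0.31 and -0.13. Both Epas1 values were lower in the mutant, by no more than the SD of 0.31 between probe sets of genes with a mean signal over 1000.

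Egln1 (PHD2), the main hydroxylase in most tissues, read 2042 and 2392 in its brightest probe set, a ratio of 0.23. Its other probe set read 1712 and 1310, a ratio of -0.39, so its direction was unsettled. Egln3 (PHD3), a hydroxylase whose own gene responds to low oxygen, gave signals of 1225 in control and 616 in mutant cells. Its second probe set read 835 and 256, the lowest ratio among the 23 probe sets at -1.70, against -0.99 in the first. Both Egln3 probe sets were thus near or beyond 2-fold lower. The mean over both was -1.35 (SD 0.50 over 2 probe sets).

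Among the targets, Adm encodes adrenomedullin, a peptide that relaxes vessels and is needed for vascular and lymphatic development. Its brightest probe set read 6401 and 3260, 50.9% of control, and the other read 123 and 89.3, close to the floors, ratios of -0.97 and -0.46. The brightest is of a type (suffix x_at) that the array's maker marks as open to cross-hybridisation, and the unsuffixed probe set is the dim one. Ankrd37, a small ankyrin-repeat protein known as a HIF target, read 808 and 398 in its only probe set, 2.03-fold lower. Its ratio of -1.02 was 2.67 times the SD of 0.38 between probe sets of genes in its brightness class, with a mean signal from 200 to 1000. That SD comes from probe sets that read the same RNA. It does not measure variation between embryos, sorts or arrays. Of the 4969 genes in that class, 98.7% had a higher ratio.

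Ndrg1, a stress-responsive protein induced by low oxygen, was lower in all 4 measured probe sets. The brightest read 1012 and 515, a ratio of -0.97, and the 3 others had ratios of -1.01, -0.68 and -0.32. The mean was -0.75 (SD 0.32 over 4 probe sets). The brightest has the suffix x_at, as that of Adm does, and those at -1.01 and -0.68 have the suffix s_at. The only unsuffixed one among the 4 read 369 and 295 and was the nearest to 0.

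Bnip3, a mitochondrial protein that recruits the autophagy machinery, read 1697 and 933 in its only probe set, 55.0% of control. In its class of 4347 genes with a mean signal over 1000, 98.9% had a higher ratio than its -0.86, and for Adm this share was 99.2%. Pdk1, a kinase that inhibits pyruvate dehydrogenase, was lower in all 3 measured probe sets. They read 805 and 562, 505 and 312, and 339 and 265, with ratios of -0.52, -0.69 and -0.36 (mean -0.52, SD 0.17 over 3 probe sets). None of the Pdk1 probe sets reached 2-fold.

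Slc2a1 encodes the glucose transporter GLUT1. It read 7274 and 7378 in its brightest probe set, 7221 and 6281 in the next and 3868 and 3282 in the last. The ratios of 0.02, -0.20 and -0.24 were all smaller than the class SD of 0.31. Slc2a1 thus stayed close to its control signal while Pdk1, which acts further down the same path of glucose use, was at 69.8% of control in its brightest probe set.

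**Figure D3:**
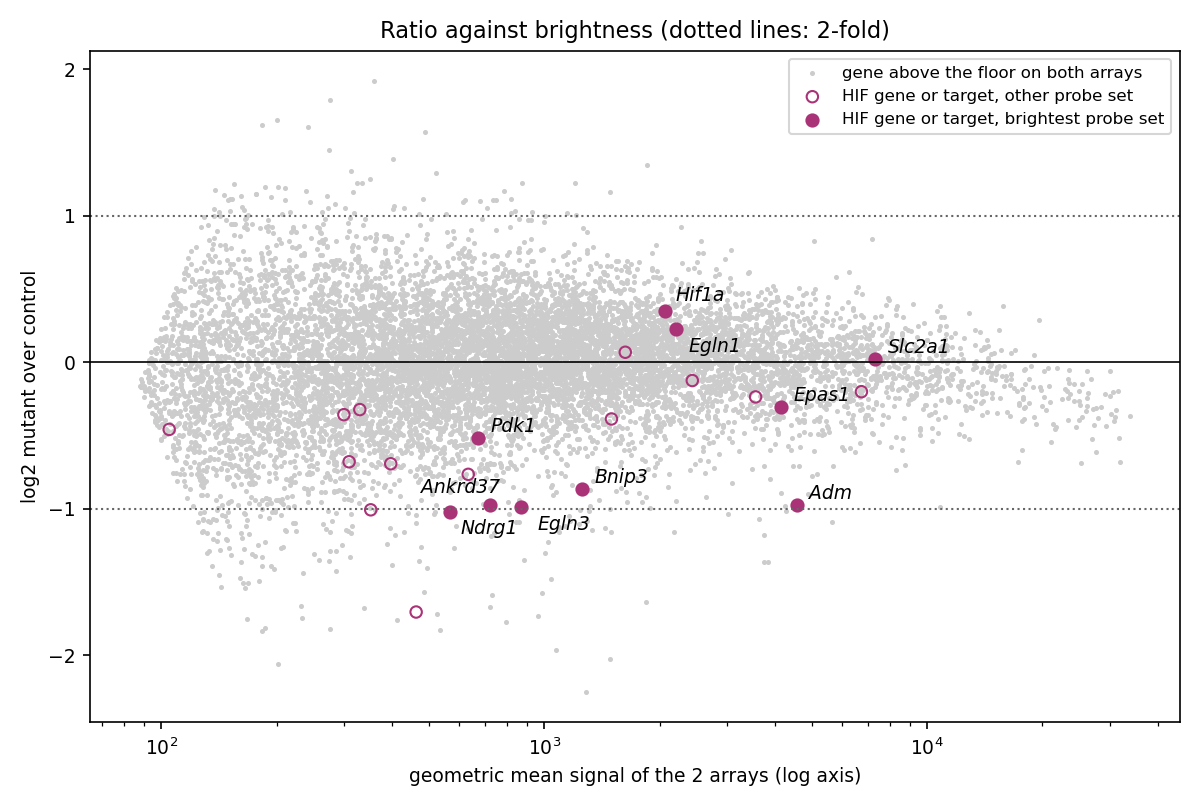
Log2 ratio of mutant over control against the geometric mean signal of both arrays (log axis) for all 10665 measured genes (grey) and for the 23 measured probe sets of the HIF genes and targets (filled: brightest of the gene, open: others); dotted lines mark 2-fold. In their brightest probe sets, Adm, Ankrd37, Egln3, Ndrg1 and Bnip3 lie at the lower edge of the grey cloud at their brightness, and Hif1a, Egln1 and Slc2a1 within it.

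The rest of the oxygen-sensing machinery went both ways. Of 15 measured genes for HIF partners, hydroxylases and the VHL ligase, 6 were lower and 9 higher in their brightest probe sets. The median was 0.02, with 0 at 2-fold in either direction. Probe sets of some of these genes disagreed. Hif1an was at -0.11 in its brightest, and a dimmer one read 114, near the floor, and 306 (1.42). Arnt probe sets ran from -0.79 to 0.43. The lowest were the ubiquitin ligase genes Siah1a (-0.27) and Siah2 (-0.13). The highest were P4htm, a transmembrane prolyl hydroxylase (0.41, from a control signal of 111), and Cul2, the scaffold of the VHL ligase (0.36). The other Cul2 probe set was at -0.09. Rbx1, the ligase's RING subunit, gave 116 in control cells and was under the mutant floor, at least 1.41-fold lower. Such bounds include the difference of -0.15 (log2) between the floors.

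Other known HIF targets were lower more often than higher. Of 30 measured genes outside glycolysis, 22 were lower and 8 higher in their brightest probe sets, with a median of -0.20. By these, 1 was at 2-fold in each direction. A dimmer Ak4 probe set was at -1.24, against -0.58 in the brightest. Bhlhe40, a transcriptional repressor, read 1706 and 573, the lowest ratio of the list at -1.57. Vegfa, the main growth factor of blood vessels, read 772 and 417, a ratio of -0.89, and its second probe set was at -0.78. The highest were Vldlr, a lipoprotein receptor, read at 195 and 412 (1.08), and Gbe1, a glycogen branching enzyme (0.47, from a control signal of 108). Of the 6 Vldlr probe sets, that 1 alone was above the floor on both arrays, and it has the suffix x_at. Car12 and Angpt2 were above the floor in the control only, at least 1.39-fold and 1.30-fold lower, and Car9 and Bhlhe41 were under the floor on both arrays.

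Genes of glucose and pyruvate use, next to Slc2a1 and Pdk1 in the cell, had a median of -0.19 in their brightest probe sets. By these, 16 of 23 were lower, 7 higher and 0 at 2-fold. The lowest were the enolase gene Eno2 (-0.78) and Pdp1, the phosphatase that reverses the action of pyruvate dehydrogenase kinases (-0.54). The highest were the glucose transporter Slc2a3 (0.50) and the monocarboxylate transporter Slc16a1 (0.26). Dimmer probe sets differed for Aldoa, at -1.48 against -0.24 in its brightest, and for Hk1, at 0.71 against 0.10. Slc2a4, a transporter of muscle and fat, was above the floor in the control only, at least 1.57-fold lower, and Aldoc in the mutant only, at least 1.15-fold higher. The paralogs of Pdk1, named outside the rule for named genes, went both ways, with Pdk2 at -0.49, Pdk4 at -0.47 and Pdk3 at 0.20.

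The receptor genes of adrenomedullin did not follow Adm. Ramp2, the accessory protein that makes the receptor respond to it, read 14249 and 14509 (0.03), and the receptor gene Calcrl had probe sets at -0.14 and 0.34. Of 5 measured genes 3 were lower and 2 higher, with a median of -0.14 and 0 at 2-fold, but the median was 0.03 with the median over each gene's probe sets. The extremes were the decoy receptor Ackr3 (-0.42), the amidating enzyme Pam (-0.34) and Ramp3 at 0.61 from a control signal of 111. Ramp1 and Mme were above the floor in the mutant only, at least 1.34-fold and 1.02-fold higher.

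Genes of mitochondrial clearance, the process in which Bnip3 acts, had a median of -0.13, with 7 of 10 lower and 0 at 2-fold. They ran from Gabarapl1 (-0.31) and Pink1 (-0.22) to Bcl2l13 (0.06) and Bcl2l1 (0.25) in their brightest probe sets. The lowest probe sets of Bcl2l13 and Bcl2l1 were at -0.33 and -1.08, so neither had a settled direction. Among the 3 paralogs of Ndrg1, Ndrg2 read 3256 and 1050, a ratio of -1.63 from its only probe set. Ndrg3 was at 0.32 in both of its probe sets, and the Ndrg4 probe sets were at -0.46 and 0.50.

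**Figure D4:**
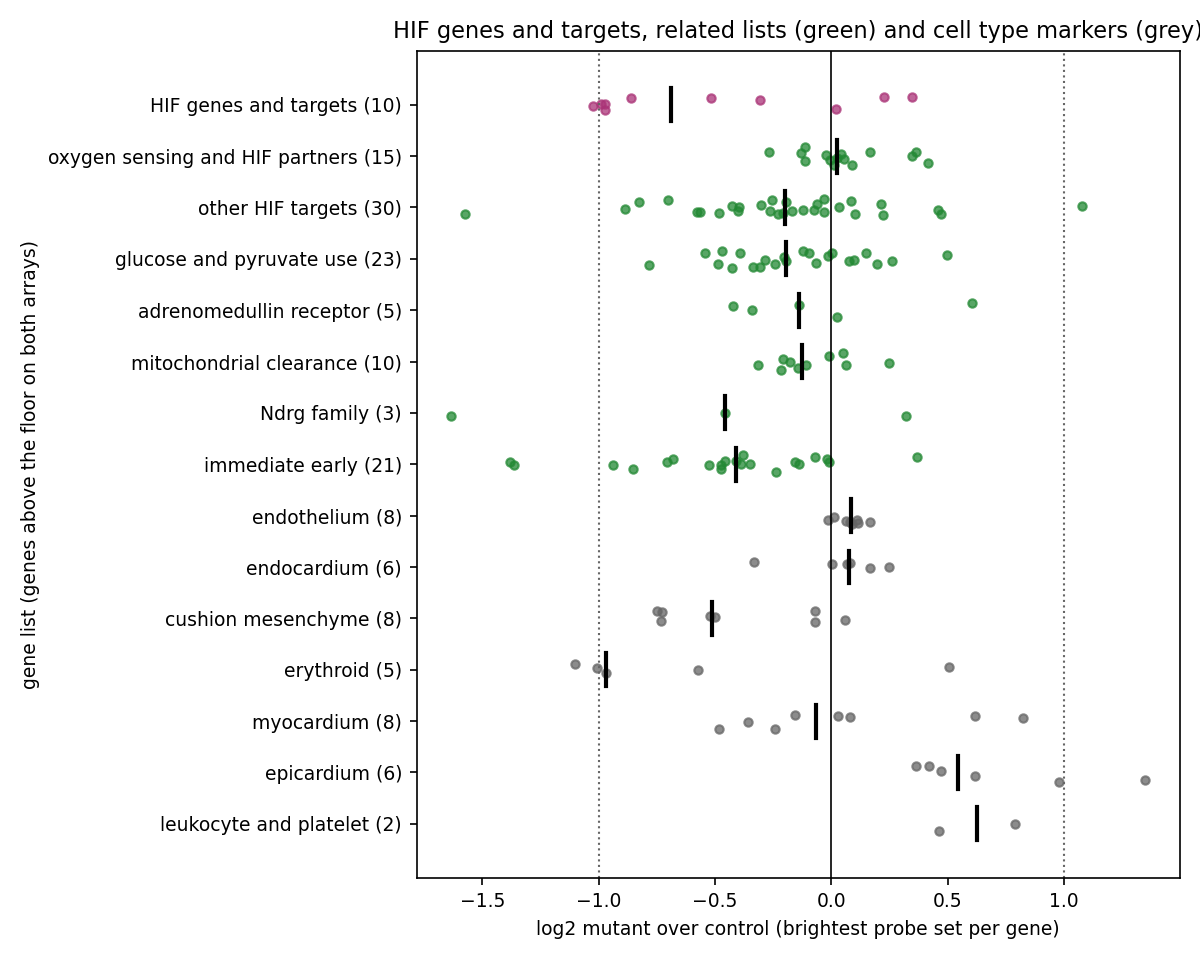
Log2 ratio of mutant over control of each measured gene (point) in the 10 HIF genes and targets, 7 related lists (green) and 7 cell type marker lists (grey), with list medians as black bars and 2-fold as dotted lines. The medians are -0.69 for the HIF genes and targets, 0.02 for oxygen sensing and partners, and -0.20 for other HIF targets.

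Several features of the preparations moved with these ratios, and their part in the result was not tested. Immediate early genes, which respond to dissociation and sorting, were lower for 20 of 21 measured genes (median -0.41), from Egr3 (-1.38) and Ier3 (-1.36) up to Btg2 (-0.01, with its other probe set at -0.94) and Myc (0.37). RNA quality, read as the Gapdh control signal at the 3' end over that at the 5' end, gave 2.27 in control and 1.64 in mutant cells, and for Actb 0.989 and 0.998. Cushion mesenchyme markers summed to 55681 and 45579, with 7 of 8 lower. Erythroid markers summed to 12054 and 8187, with 4 of 5 measured lower and Gata1 under the floor on both arrays. Klf1 (-1.10) and Hbb-bh1 (-1.01) were past 2-fold lower, and Epor (0.51) was higher. Alas2 was above the floor in the control only, at least 1.38-fold lower. Epicardial markers summed to 4712 and 8098, with 6 of 6 measured higher, Upk3b (1.35) past 2-fold, and Msln under the floor on both. Upk1b was above the floor in the mutant only in its brightest probe set, at least 2.95-fold higher. Endothelial markers, which cover only part of the Tie2Cre lineage, summed to 53373 and 55984, with ratios from -0.01 to 0.16. Endocardial markers summed to 29101 and 30558, with ratios from -0.33 (Nfatc1) to 0.25 (Npr3). Nfatc1 probe sets ran from -1.58 to 0.16. Myocardial markers summed to 22198 and 23953, with 4 of 8 measured lower, from Nppa (-0.48) to Myl7 (0.83). Leukocyte and platelet markers went both ways within nearly equal sums of 728 and 712. Cd68 (0.79, from a control signal of 93.8, close to the floor) and Pf4 (0.46) were higher. Cx3cr1 and Csf1r were above the floor in the control only, at least 2.74-fold and 1.74-fold lower. Of the same 7 markers, Ptprc, which encodes CD45, Itga2b, which encodes CD41, and Gp9 were under the floor on both arrays. In bulk RNA, fewer cells of a type and less RNA per cell cannot be told apart. Tbx20 itself was detected on both arrays, with ratios of -0.25, -0.22 and -0.73 in its 3 probe sets, and which exons the floxed gene loses is not stated.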

How the data were processed

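The deposited table holds 1 intensity per probe set and array, a linear MAS5 signal made by the authors, per the submitters' processing notes. Trimmed of 2% at either end, the signals averaged 500.003 in both columns, so the arrays had been scaled alike. The mismatch correction of MAS5 makes ratios of dim probe sets noisy. The genome build is not given in the sources used here.

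Signals were floored at each array's median over 45037 non-control probe sets and put on the log2 scale. Probe sets naming exactly 1 gene in the platform annotation (34945) were used, and a gene took the value of its brightest probe set by mean log2 signal. With 1 array per genotype no p-value was computed, and spread is the SD between probe sets of 1 gene (root mean square over genes for a brightness class), which share the same RNA. Calls were at 2-fold. The text names all 10 genes, up to 2 genes at each end of every related list and any at 2-fold. Outside that rule it names the Pdk1 paralogs and some genes whose probe sets disagreed. It also names some listed genes that were not above the floor on both arrays. The genes and lists were chosen with earlier results of these data known. Listed genes without a single-gene probe set, among them Bnip3l, Gapdh and Eno1, were not analysed here. The alternatives are those of the closing section. The steps were tested on simulated data. Python 3.11.15, pandas 2.3.3 and statsmodels 0.14.6 (loess, span 0.3) were used.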

Additional observations from a re-analysis of the deposited data

How the results depend on the processing

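The median of the 10 genes kept its sign under all 8 alternatives, from -0.73 to -0.41, and the number lower ranged from 5 (of 8 measured, with the floor at the 75th percentile) to 9. The count at least 2-fold lower, 1 as reported, was 2 after matching the arrays' medians over measured probe sets or with the median over probe sets, 3 after quantile normalization or loess, and 0 with the floor at the 75th percentile or a pseudocount. It was 5 when counted at 1.5-fold and 0 at 3-fold, by construction of the rule. Among the genes, Hif1a turned to -0.76 with unsuffixed probe sets only and Egln1 to -0.08 with the median over probe sets, and Slc2a1 to -0.24 and -0.20 under these choices. Adm was at -0.46 and Ndrg1 at -0.32 with unsuffixed probe sets only. The median of the adrenomedullin receptor genes turned to 0.03 with the median over probe sets and to 0.02 with a pseudocount. The gene values differ because other probe sets were used. The median of the Ndrg1 paralogs was -1.63 with unsuffixed probe sets only, where Ndrg3 and Ndrg4 have none, and 0.02 with the median over probe sets. Of the 134 values of single genes and related lists, 128 moved by less than the SD between probe sets. Part of these could not move. Other floors left the ratio of every member still measured unchanged, and Ankrd37 and Bnip3 have 1 probe set each. A change of sign smaller than that SD, as for Slc2a1, is among the 128. No paired analysis was possible because each genotype has 1 array. The dim Adm probe set and the control signals of Ramp3, Rbx1, P4htm, Gbe1 and Cd68 lie near the floor, which limits their ratios.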
